A study of Mus musculus with 12 samples.

Results

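The genes described here are 9 homeobox genes that mark positions along the anterior to posterior axis of the embryonic brain, *Otx1*, *Otx2*, *Six3*, *Lhx2*, *Emx2*, *Rax*, *En1*, *En2* and *Gbx2*. They were chosen by name as patterning genes of the forebrain, the midbrain and the border between midbrain and hindbrain, and were found through their Ensembl identifiers. All 9 were among the 45706 genes of the deposited counts, and all 9 passed the filter on low counts, *Rax* only through the libraries labelled NR and *Otx2* mainly through the libraries labelled NSC and NR, where its level was high.

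Homeobox genes encode transcription factors that bind DNA through a homeodomain. In the neural tube they are expressed in bands, with *Six3* and *Rax* in the most anterior forebrain and eye field, *Lhx2* and *Emx2* in the dorsal forebrain, the *Otx* genes in forebrain and midbrain, the engrailed genes *En1* and *En2* on both sides of the border between midbrain and hindbrain, and *Gbx2* on its hindbrain side. *Otx2* and *Gbx2* repress each other, and the line where they meet positions the isthmic organizer, a signalling centre that secretes Fgf8.

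RNA was sequenced from 4 groups of cultured mouse cells with 3 replicates each, which the series describes as independent samples made on different days. All cells came from embryonic stem cells (ESCs) of the strain C57BL/6 by label and, by the methods of the study, carried GFP at one *Sox1* allele. NPC, labelled Baseline, are unsorted glial progenitors described as negative for *Sox1*. NPC(+), labelled Sox1posGP, are sorted *Sox1*-positive progenitors of the same kind, in which dCas9-VP64, a Cas9 without nuclease activity fused to a transcriptional activator, had been directed to the *Sox1* promoter. NSC are unsorted neuroepithelial cells made by neural induction of ESCs, and NR are neuroepithelial cells labelled as GFP-sorted neural rosettes. The dCas9-VP64 lines go back to single cells, and which of them gave which libraries is not stated. Sorting goes together with *Sox1* activation between NPC and NPC(+), so the 2 cannot be told apart there. By the methods of the study, guide RNAs were brought in by lentivirus and cells were selected with puromycin. Where only NPC(+) went through these steps, they too cannot be told apart from activation. NR and NSC also differ in sorting.

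Total counts per library ran from 4939268 to 18351483 in NPC, from 3407066 to 6315574 in NPC(+), from 29046205 to 43095688 in NSC and from 16707006 to 34594885 in NR. Levels are given as CPM, counts relative to the TMM-scaled size of their library. A floor of 3 counts in a library stood on average at 0.408 CPM for NPC, 0.613 for NPC(+), 0.0874 for NSC and 0.122 for NR. *Sox1*, the targeted gene, was at 5.42 ± 0.583 CPM in NPC and 20.9 ± 0.710 in NPC(+) (SD, n = 3). The libraries labelled NR went in part against their label. *Sox1* was at 4.62 CPM in NR replicate 1, the level of NPC, and at 20.0 and 19.2 in replicates 2 and 3, below the 48.6 to 64.9 CPM of NSC. All 8 pluripotent cell markers, with *Dppa5a* the most abundant, were higher in NR than in NSC and than in NPC. Their summed level was 1660 to 3142 CPM in NR, 59.7 to 171 in NSC, 8.79 to 13.9 in NPC(+) and 7.30 to 8.41 in NPC, with NR replicate 1 at the top. The sum of 8 neural progenitor markers was 912 to 1656 CPM in NR, against 2746 to 2867 in NSC, 2794 to 2881 in NPC(+) and 4385 to 4787 in NPC, and none of these 8 was at 0 in any group. *Slc1a3*, a glutamate transporter of glia, carried much of the NPC sum with 2605 CPM against 52.4 in NSC, and 5 of the 8 markers were higher and 3 lower in NSC than in NPC, while all 8 were lower in NR than in NSC. The summed rosette markers were at 336 to 528 CPM in NR against 848 to 910 in NSC, while mesoderm and endoderm markers were at 96.0 to 145 against 40.2 to 56.6 and choroid plexus markers at 32.2 to 50.2 against 8.47 to 9.01. *Folr1* made up most of the choroid plexus sum in NR with a mean of 30.0 CPM, followed by *Clic6* with 9.92. *Ttr*, *Kl* and *Kcne2* were at 0.381, 0.357 and 0.153 CPM there. In bulk samples fewer cells of a type and less RNA per cell cannot be told apart.

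Apart from *Six3* and *Lhx2*, the 9 genes fell into 3 sets by the groups in which they were high. NPC and NPC(+) were high in *Otx1*, *Emx2* and *En1*, NSC in *En2* and *Gbx2*, and NR in *Otx2* and *Rax*. *Six3* was lowest in NPC and *Lhx2* lowest in NR, and neither was high in a single one of these sets. Between NPC(+) and NPC 3 of the 9 were called, *Six3* and *Gbx2* as higher and *Emx2* as lower in NPC(+), where 21.6% of all 17003 genes tested were called higher and 22.7% lower. A gene was called where the quasi-likelihood test of edgeR gave a p under 0.05 and an adjusted p under 0.1, adjusted by Benjamini and Hochberg's method over all genes tested, and every adjusted p printed here is of this kind.

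**Figure D1:**
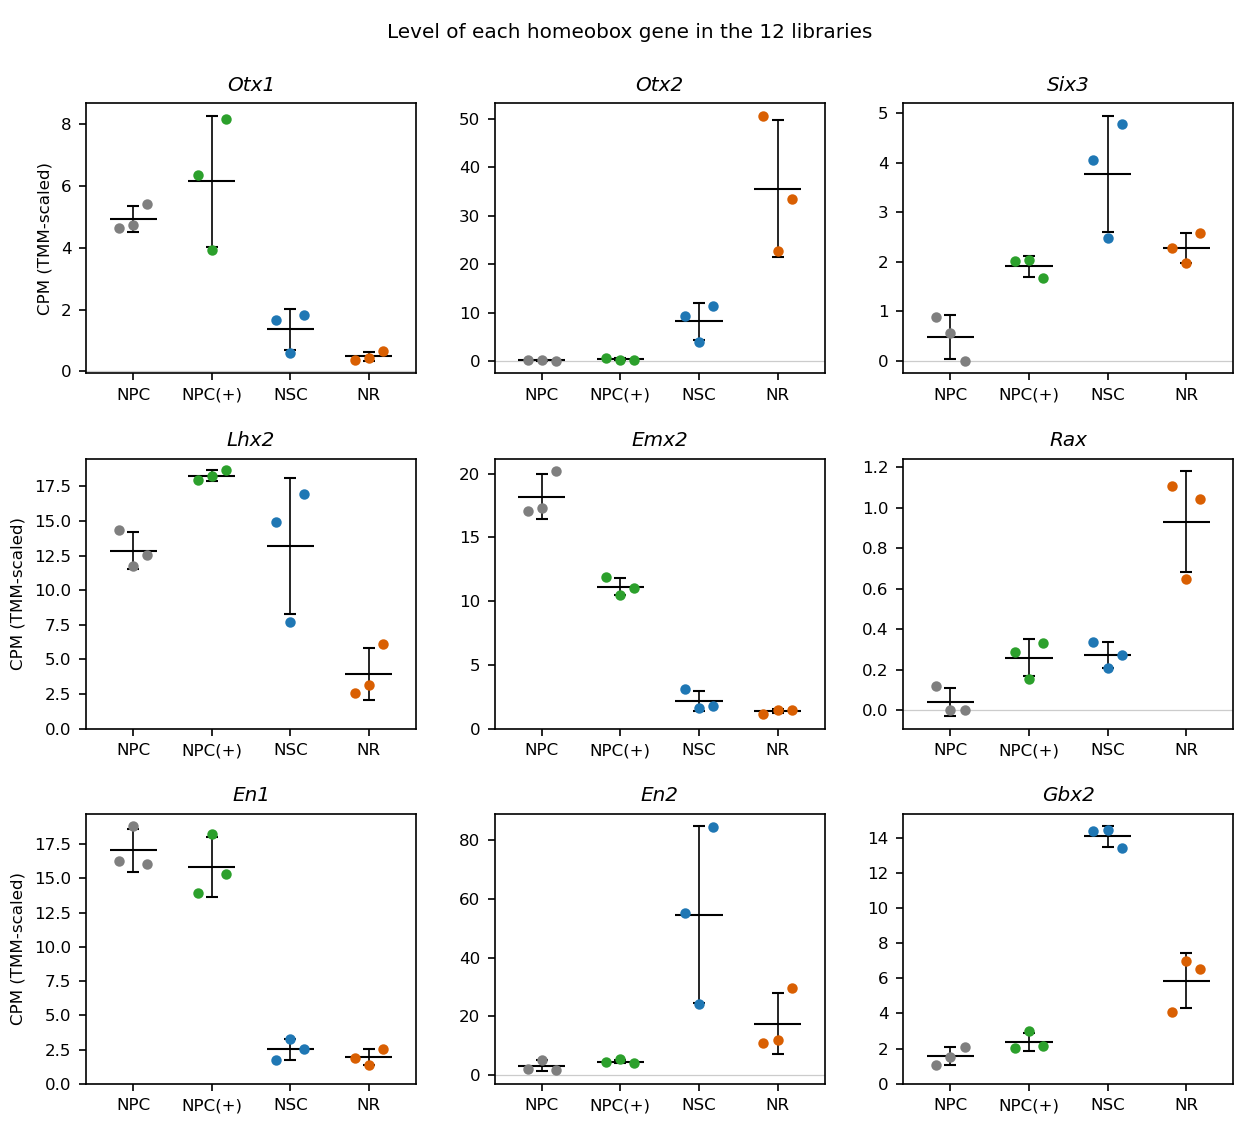
Level of each of the 9 genes in CPM (y axis, TMM-scaled, a separate linear scale per gene) in the 4 groups (x axis), with 1 point per library, a horizontal bar at the mean and whiskers for the SD of 3 libraries. *Otx1*, *Emx2* and *En1* sit high in NPC and NPC(+), *En2* and *Gbx2* in NSC and *Otx2* and *Rax* in NR.

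*Otx1* and *Otx2* encode orthodenticle factors, and *Otx2* is needed to form the forebrain and midbrain and is also expressed in pluripotent cells of the epiblast. *Otx1* (ENSMUSG00000005917, GRCm38 chr11:21994764-22002897, minus strand) was at 4.65, 4.74 and 5.43 CPM in NPC replicates 1 to 3, at 6.37, 3.93 and 8.17 in NPC(+), at 1.66, 0.587 and 1.83 in NSC, and in the NR libraries at 0.369, 0.419 and 0.646. All NPC and NPC(+) libraries therefore lay above all NSC and NR libraries, NPC(+) overlapped NPC, and NSC replicate 2 fell within the range of NR. *Otx1* was 3.56-fold lower in NSC than in NPC (log2 fold change -1.83, SE 0.38, adjusted p = 6.83e-04) and 9.81-fold lower in NR than in NPC (-3.29, SE 0.43, adjusted p = 9.09e-06). NR lay 2.75-fold below NSC (-1.46, SE 0.42, adjusted p = 0.0104), a difference that did not pass after all libraries were thinned to the smallest total (adjusted p = 0.136). The difference between NPC(+) and NPC was a log2 value of 0.32 (SE 0.39, adjusted p = 0.569), with a 95% interval from -0.45 to 1.09.

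*Otx2* (ENSMUSG00000021848, chr14:48657677-48673819, minus strand) had 4, 1 and 0 counts in NPC and 2, 2 and 1 in NPC(+), which is at or near the floor. It had 414, 115 and 372 counts in NSC, or 9.26, 3.97 and 11.3 CPM, and 822, 706 and 1187 counts in NR, or 50.6, 22.8 and 33.4 CPM. The groups formed 3 separate steps, with NPC and NPC(+) together at the bottom, NSC in the middle and NR on top. *Otx2* passed the filter on low counts through NSC and NR, with 0 NPC libraries and 1 NPC(+) library passing. Its tests of NSC and NR against NPC and NPC(+) therefore draw on the level that admitted it and are given as a description. From the summed counts the ratio of NSC to NPC was 48.6 (95% interval 20.8 to 150, counting error only) and that of NR to NPC was 188 (80.6 to 580), with adjusted p = 4.31e-06 and 7.45e-08. Without NPC replicate 1, which holds 4 of the 5 NPC counts, the fitted log2 fold changes rose from 5.53 to 6.48 for NSC and from 7.64 to 8.58 for NR. NR exceeded NSC 4.31-fold (log2 fold change 2.11, SE 0.34, adjusted p = 2.32e-04), and without NR replicate 1 the log2 fold change was 1.77. The ratio of NPC(+) to NPC rested on 5 counts in each group and was 1.82 (interval 0.418 to 7.89, adjusted p = 0.674). Across the NR libraries *Otx2* had the same order as the summed pluripotent cell markers, and NSC replicate 2 was the lowest of its group in both, with 59.7 CPM of these markers against 171 and 153 in replicates 1 and 3. Within NSC *Otx2* was highest in replicate 3 and the markers in replicate 1. NSC replicate 2 was also the lowest of its group in *Otx1*, *Six3*, *Lhx2*, *Emx2*, *Rax* and *En2*. The part of these markers in the level of *Otx2* was not tested.

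**Figure D2:**
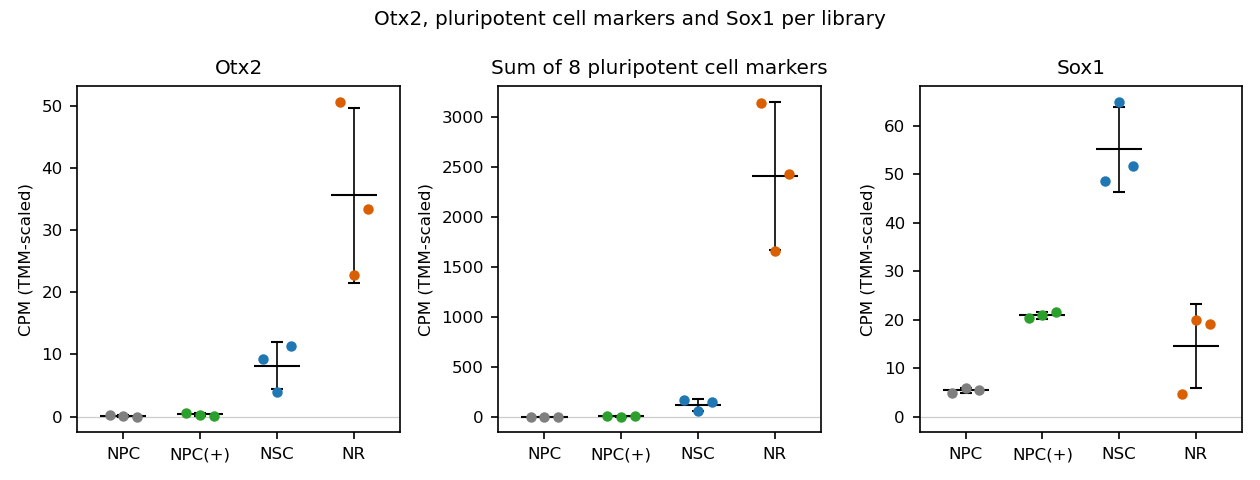
*Otx2*, the sum of 8 pluripotent cell markers and *Sox1*, each in CPM (y axes, linear) by group (x axis), with 1 point per library and bars for the mean and SD of 3 libraries. *Otx2* and the markers are both highest in NR replicate 1, while *Sox1* is highest in NSC and is lowest within NR in replicate 1.

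The balance within the pair turned over between the cultures. Counted per kb of exon, *Otx2* made up 6.18%, 3.64% and 0% of the pair in NPC, where the 0% stands for 0 of 26 counts and allows up to 16.4% by the exact Clopper-Pearson interval. It made up 10.5%, 9.32% and 2.55% in NPC(+), 87.8%, 89.7% and 88.8% in NSC, with NR at 99.4%, 98.6% and 98.5%. NSC replicate 2, in which both genes were at their lowest within NSC, had an interval of 83.9% to 93.9%, which takes in the shares of the other NSC libraries. An exact permutation test of 3 against 3 libraries cannot go below p = 0.1, so shares are given without one.

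**Figure D3:**
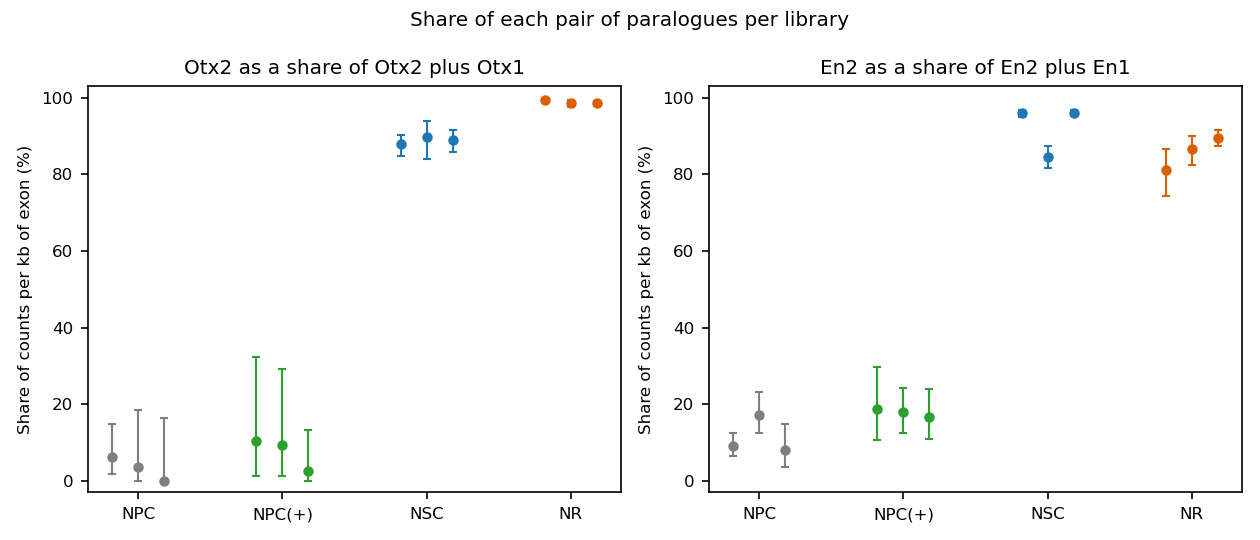
Share of *Otx2* in *Otx2* plus *Otx1* (left) and of *En2* in *En2* plus *En1* (right), in percent of counts per kb of exon (y axes) by group (x axis), with 1 point per library and 95% exact intervals for counting error. In both pairs the NPC and NPC(+) libraries lie at 18.8% or less and the NSC and NR libraries at 81.0% or more.

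The promoters of 4 genes with large contrasts between the cultures are shown to set their letters side by side, as the 250 bases before a RefSeq start site on GRCm38, written 5′ to 3′ on the strand of the gene. Of the 9 genes 6 matched an entry of the promoter table. Capitals mark matches on either strand to TAATCC (reverse GGATTA), the core bound by Otx homeodomains, TAATTA, the core bound by engrailed and many other homeodomains, and ACAAT (reverse ATTGT), a core of Sox binding sites.
Otx2, start 1 (chr14:48667645-48667894, minus strand): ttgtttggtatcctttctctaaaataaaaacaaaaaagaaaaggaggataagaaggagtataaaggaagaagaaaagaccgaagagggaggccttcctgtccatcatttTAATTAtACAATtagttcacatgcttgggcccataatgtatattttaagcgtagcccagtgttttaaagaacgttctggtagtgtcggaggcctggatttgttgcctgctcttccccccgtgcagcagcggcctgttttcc
Otx2, start 3 (chr14:48665110-48665359, minus strand): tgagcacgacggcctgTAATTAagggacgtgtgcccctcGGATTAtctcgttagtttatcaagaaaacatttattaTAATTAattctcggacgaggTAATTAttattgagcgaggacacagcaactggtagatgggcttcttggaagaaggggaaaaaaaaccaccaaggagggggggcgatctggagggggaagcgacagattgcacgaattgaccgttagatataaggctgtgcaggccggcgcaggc
Emx2 (chr19:59458440-59458689, plus strand): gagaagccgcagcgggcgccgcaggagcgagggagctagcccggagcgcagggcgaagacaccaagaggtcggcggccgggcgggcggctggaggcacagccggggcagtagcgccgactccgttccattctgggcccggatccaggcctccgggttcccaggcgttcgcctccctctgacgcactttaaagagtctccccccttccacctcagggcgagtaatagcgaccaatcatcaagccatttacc
En1 (chr1:120602237-120602486, plus strand): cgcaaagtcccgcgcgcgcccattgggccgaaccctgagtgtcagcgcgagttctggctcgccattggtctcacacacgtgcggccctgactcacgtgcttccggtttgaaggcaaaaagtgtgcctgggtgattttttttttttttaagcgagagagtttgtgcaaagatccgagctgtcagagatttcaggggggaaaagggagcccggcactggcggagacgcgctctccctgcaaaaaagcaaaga
Gbx2 (chr1:89931177-89931426, minus strand): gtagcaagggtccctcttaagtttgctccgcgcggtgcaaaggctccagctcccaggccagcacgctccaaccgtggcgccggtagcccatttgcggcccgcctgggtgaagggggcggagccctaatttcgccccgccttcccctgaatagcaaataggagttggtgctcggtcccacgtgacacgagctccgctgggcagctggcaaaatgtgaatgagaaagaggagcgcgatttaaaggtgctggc

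*Otx2* has 4 start sites in the table, and the windows of 3 of them hold a match. The window of start 3 had 3 matches to TAATTA and 1 to TAATCC, that of start 1 had 1 to TAATTA and 1 to ACAAT, and that of start 4 had 1 to ACAAT. None of these matches overlapped another, while the windows of starts 1 and 2 share bases. Over all 32851 windows of this length, 4.84% held TAATTA, 6.25% TAATCC and 27.7% ACAAT. The single windows of *Six3*, *Emx2*, *En1* and *Gbx2* and both windows of *Lhx2* held none of the 3 motifs. The windows also differed in CpG sites, with 6 to 14 in the 4 *Otx2* windows, 10 in *Six3*, 18 in *Gbx2*, 19 in *En1*, 24 in *Emx2* and 24 and 25 in *Lhx2*, against a median of 6 over all windows. A match is a description of the letters and not of binding.

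*Six3*, which represses Wnt signalling in the anterior forebrain, was the member with the larger of the 2 called rises in NPC(+). *Six3* (ENSMUSG00000038805, chr17:85613608-85629302, plus strand) had 15, 4 and 0 counts in NPC and 7, 13 and 10 in the shallower NPC(+) libraries, that is 0.895, 0.558 and 0 CPM against 2.03, 2.04 and 1.67. All NPC(+) libraries lay above all NPC libraries. It was 3.08-fold higher in NPC(+) (log2 fold change 1.62, SE 0.54, adjusted p = 0.0276), and from the summed counts the ratio was 2.87 (interval 1.56 to 5.39). The call stood in all 13 alternative fits run for it, with log2 fold changes of 1.31 to 2.51, the highest of them without NPC replicate 1. Adjusted p in these fits reached 0.0951, and the call did not stand where a fold over 4 was asked as well. In NSC it was at 4.05, 2.49 and 4.79 CPM and in NR at 2.28, 1.97 and 2.59, so that both groups lay above NPC. The rise over NPC was 6.12-fold in NSC (log2 fold change 2.61, SE 0.45, adjusted p = 1.35e-04) and 3.69-fold in NR (1.88, SE 0.46, adjusted p = 0.00208), or log2 values of 3.46 and 2.73 without NPC replicate 1. *Six3* passed the filter on low counts in 1 NPC library and in all libraries of the other groups. Its tests against NPC therefore draw in part on the levels that admitted it and are given as a description.

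NPC(+) overlapped NR in *Six3* (log2 difference -0.26, 95% interval -1.10 to 0.58) and lay below NSC (-0.99, SE 0.42, adjusted p = 0.0485). The difference from NSC no longer passed without any one of the 3 NPC(+) libraries or NSC replicates 1 or 3, with adjusted p between 0.0955 and 0.159. NR overlapped NSC and was not called (log2 fold change -0.73, SE 0.34, adjusted p = 0.0948 with p itself above 0.05). A fit that blocked on the replicate number called this difference (-0.69, adjusted p = 0.0562), although replicates 1 and 3 were not matched by number. So did the omission of NSC replicate 2 (-0.96, adjusted p = 0.0217) and the test without the filter on low counts (adjusted p = 0.0341). The fit of only these groups (adjusted p = 0.0673) and thinning (-1.28, adjusted p = 0.0658) called it as well. The antisense gene *Six3os1* shares 106 exon bases with *Six3* and had 174, 36 and 119 counts in NSC and at most 5 in any NPC or NPC(+) library. Whether the counts use strand is not stated, and the amplification kit does not mark it, so reads on shared bases cannot be assigned to 1 of the 2 genes.

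*Rax*, the retinal and hypothalamic homeobox gene of the eye field, had few counts in every group. *Rax* (ENSMUSG00000024518) had 2, 0 and 0 counts in NPC and 1, 1 and 2 in NPC(+), both groups at the floor, so that no fold between them is given. It had 15, 6 and 9 counts in NSC, or 0.336, 0.207 and 0.274 CPM, and 18, 20 and 37 in NR, or 1.11, 0.645 and 1.04 CPM. All 3 NR libraries lay above every other library. Since *Rax* passed the filter on low counts only through these 3 libraries, its tests against NR draw on the level that admitted it and are given as a description. NR exceeded NSC 3.26-fold (log2 fold change 1.70, SE 0.37, adjusted p = 0.00193), although the difference did not pass after thinning (adjusted p = 0.293). From the summed counts the ratio to NPC was 13.0 in NR (interval 3.48 to 109, adjusted p = 1.72e-04) and 4.05 in NSC (1.03 to 34.9, adjusted p = 0.0326). The second of these was lost without NPC replicate 2 (adjusted p = 0.0971), NPC replicate 3 (0.0777) or NSC replicate 1 (0.0766), which leaves p itself above 0.05. Both ratios rest on the 2 counts of NPC replicate 1, without which NPC holds 0. The antisense gene *Raxos1*, which shares 1604 exon bases with *Rax*, had at most 3 counts in any library. The summed level of 7 retina and pigment epithelium markers was 6.65 to 11.7 CPM in NR, 3.66 to 4.14 in NSC, 11.0 to 12.9 in NPC and 11.0 to 13.6 in NPC(+), and 3 of these markers were at 0 in all NPC(+) libraries and 1 in all NPC libraries.

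*Lhx2*, a LIM homeobox gene that specifies cortical identity and the eye field, had its lowest level in NR. *Lhx2* (ENSMUSG00000000247, chr2:38339281-38369733, plus strand) was at 14.3, 11.7 and 12.5 CPM in NPC, 17.9, 18.2 and 18.7 in NPC(+), 14.9, 7.67 and 17.0 in NSC, with NR at 2.59, 3.16 and 6.10. Every NR library lay below every other library, and NSC replicate 2 stood below its group. NR was lower than NPC by a log2 fold change of -1.68 (SE 0.32, adjusted p = 2.85e-04) and 3.27-fold lower than NSC (-1.71, SE 0.31, adjusted p = 4.81e-04). The NPC(+) libraries all lay above the NPC libraries, but the log2 difference of 0.50 (SE 0.32, 95% interval -0.13 to 1.13) had an adjusted p of 0.252. The same difference was called in a fit of only these 2 groups (adjusted p = 0.00183) and without the filter on low counts (adjusted p = 0.0948). Between NSC and NPC the log2 difference of *Lhx2* was 0.03 (95% interval -0.56 to 0.63), and its sign changed with the setting.

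*Emx2*, which directs growth and area identity of the caudal cortex, was the member that fell in NPC(+). *Emx2* (ENSMUSG00000043969, chr19:59458372-59465357, plus strand) was at 17.1, 17.3 and 20.2 CPM in NPC, 11.9, 10.5 and 11.0 in NPC(+), 3.09, 1.59 and 1.80 in NSC, with NR at 1.17, 1.48 and 1.43. The 4 groups did not overlap and fell in that order. The step from NPC to NPC(+) was 1.63-fold (log2 fold change -0.71, SE 0.23, adjusted p = 0.0270). It passed in all 14 alternative fits, with adjusted p up to 0.0926, but not where a fold over 4 was asked as well. The level in NSC was 8.28-fold (log2 fold change -3.05, SE 0.24, adjusted p = 5.70e-08) and in NR 13.1-fold (-3.71, SE 0.25, adjusted p = 1.33e-08) below NPC. The smaller step from NSC to NR (-0.66, SE 0.24, adjusted p = 0.0380) was lost without NSC replicate 1 (-0.31, adjusted p = 0.261), in a fit of only these groups (adjusted p = 0.116) and after thinning (adjusted p = 0.168). *Emx2os*, antisense to *Emx2* with 264 shared exon bases, had 126, 62 and 28 counts in NPC, 17, 39 and 35 in NPC(+), 43, 27 and 20 in NSC, with NR at 10, 17 and 34.

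The engrailed genes *En1* and *En2* are paralogues that maintain the midbrain and the anterior hindbrain, and they went opposite ways between the cultures. *En1* (ENSMUSG00000058665, chr1:120602418-120607992, plus strand) was at 16.2, 18.8 and 16.1 CPM in NPC, 13.9, 18.2 and 15.3 in NPC(+), 1.72, 3.28 and 2.56 in NSC, with NR at 1.91, 1.39 and 2.56. NPC overlapped NPC(+), NSC overlapped NR, and the 2 pairs were far apart. The log2 difference between NPC(+) and NPC was -0.099 (SE 0.25, 95% interval -0.59 to 0.39, adjusted p = 0.807). Against NPC *En1* was 6.81-fold lower in NSC (log2 fold change -2.77, SE 0.26, adjusted p = 3.55e-07) and 8.66-fold lower in NR (-3.11, SE 0.27, adjusted p = 1.39e-07). NR and NSC differed by -0.35 (SE 0.26, 95% interval -0.86 to 0.17, adjusted p = 0.290), which passed without NSC replicate 1 (-0.59, adjusted p = 0.0830), without NR replicate 3 (-0.63, adjusted p = 0.0902) and after thinning (-1.52, adjusted p = 0.0365).

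*En2* (ENSMUSG00000039095, chr5:28165694-28172166, plus strand) was at 2.21, 5.30 and 1.88 CPM in NPC, 4.34, 5.34 and 4.17 in NPC(+), 55.2, 24.2 and 84.5 in NSC, with NR at 11.0, 12.1 and 29.6. NSC and NR lay above both NPC groups in every library, NSC spread 3.49-fold between its lowest and highest library, and NR replicate 3 exceeded NSC replicate 2. *En2* was 17.8-fold higher in NSC than in NPC (log2 fold change 4.16, SE 0.54, adjusted p = 1.02e-05) and 5.78-fold higher in NR (2.53, SE 0.54, adjusted p = 7.37e-04), the latter a log2 value of 1.87 without NR replicate 3. NR was 3.09-fold below NSC (-1.63, SE 0.43, adjusted p = 0.00639), or -2.24 without NR replicate 3. NPC(+) and NPC overlapped, with a log2 difference of 0.61 (SE 0.67, 95% interval -0.70 to 1.91, adjusted p = 0.524), which passed in a fit of only these groups (adjusted p = 0.0317) and without the filter on low counts (adjusted p = 0.0817).

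Per kb of exon *En2* made up 9.16%, 17.3% and 7.98% of the engrailed pair in NPC, 18.8%, 17.9% and 16.8% in NPC(+), 96.0%, 84.5% and 96.1% in NSC, with NR at 81.0%, 86.6% and 89.6%. NSC replicate 2 had the lowest *En2* and the highest *En1* of its group, and its interval of 81.5% to 87.3% lay apart from the other NSC libraries. *Cnpy1*, the canopy gene of Fgf signalling at the midbrain-hindbrain border, lies 28.7 kb from *En2* and was the gene whose pattern over the 12 libraries was most like it (Pearson r = 0.981 of log2 CPM). *Cnpy1* was at 9.67, 10.2 and 7.30 CPM in NPC, 10.7, 11.9 and 12.0 in NPC(+), 110, 39.4 and 123 in NSC, with NR at 30.5, 26.8 and 46.0. NSC replicate 2 was again the lowest of its group.

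*Gbx2*, which sets the anterior hindbrain against *Otx2*, was the gene with the most even NSC libraries. *Gbx2* (ENSMUSG00000034486, chr1:89927956-89931179, minus strand) was at 14.4, 14.5 and 13.4 CPM in NSC, 4.06, 7.0 and 6.55 in NR, 2.03, 2.98 and 2.17 in NPC(+) and 1.07, 1.53 and 2.09 in the NPC libraries. NSC lay above NR and NR above both NPC and NPC(+) without overlap, and NPC replicate 3 lay within NPC(+). It was 9.78-fold higher in NSC (log2 fold change 3.29, SE 0.28, adjusted p = 1.39e-07) and 4.12-fold higher in NR (2.04, SE 0.28, adjusted p = 1.66e-05) than in NPC. NR was 2.38-fold below NSC (-1.25, SE 0.22, adjusted p = 4.07e-04). The rise in NPC(+) was 1.70-fold (0.76, SE 0.34) with an adjusted p of 0.09996, and 9 of its 13 alternatives lost it, among them the omission of NPC replicate 1 (0.45, adjusted p = 0.405) and replicate 2 (0.80, adjusted p = 0.143) and of NPC(+) replicates 1 (0.86, adjusted p = 0.102), 2 (0.55, adjusted p = 0.342) and 3 (0.85, adjusted p = 0.128). *D130058E05Rik*, which lies on the opposite strand and shares 946 exon bases with *Gbx2*, had 153, 71 and 46 counts in NPC and 65, 96 and 110 in NPC(+), more than the 18, 11 and 10 and the 7, 19 and 13 counts of *Gbx2* itself. It had 474, 424 and 354 counts in NSC beside 644, 419 and 440 of *Gbx2*, and 48, 226 and 195 in NR beside 66, 217 and 233. How the authors divided reads on these shared bases is not stated, so the *Gbx2* counts of all 4 groups are uncertain.

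Compared between genes per kb of exon, *En1* and *Emx2* were the highest of the 9 in NPC, at 6.50 and 6.06 CPM per kb. In NPC(+) *En1* led with 6.03, followed by *Lhx2* with 4.16 and *Emx2* with 3.71. *En2* led in NSC with 15.4 CPM per kb, followed by *Gbx2* with 6.47, and *Otx2* led in NR with 8.43, followed by *En2* with 4.96. The 3 genes of the midbrain-hindbrain border together made up 42.1%, 49.8% and 41.8% of the summed level of the 9 in NPC and 43.3%, 52.6% and 44.9% in NPC(+). In NSC they made up 74.7%, 79.4% and 78.7%, above every library of the other groups. NR ran from 29.4% in replicate 1, where *Otx2* alone held 62.0%, to 50.01% and 53.9% in replicates 2 and 3.

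**Figure D4:**
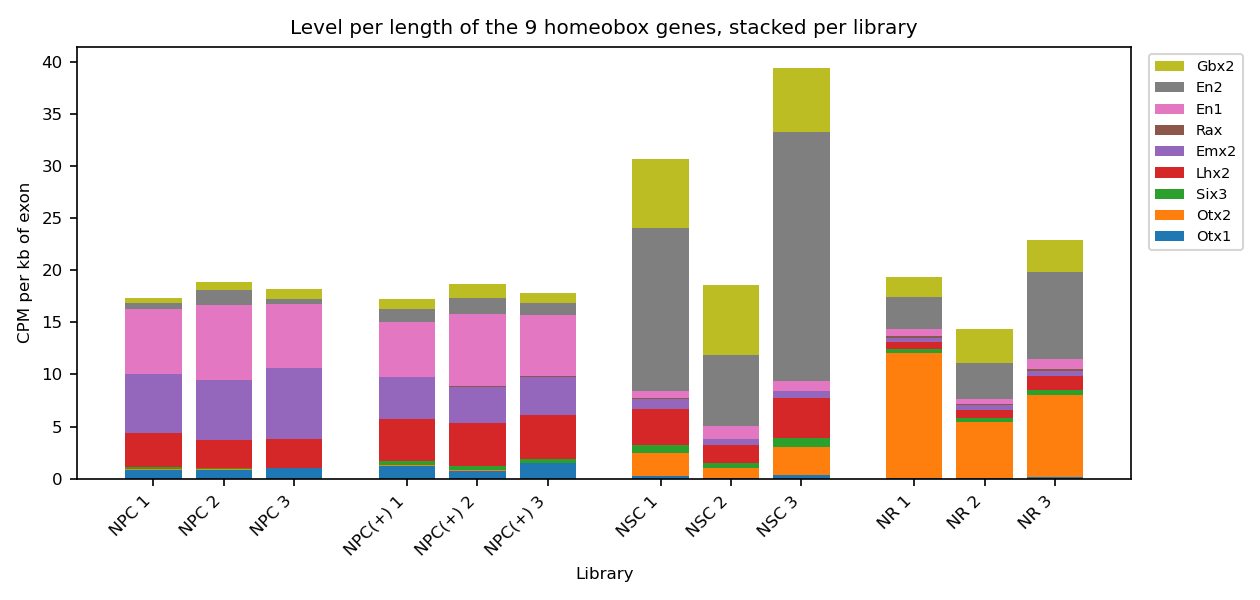
Level of the 9 genes per kb of exon (y axis, CPM per kb), stacked for each of the 12 libraries (x axis). *En1* and *Emx2* take most of the bars of NPC and NPC(+), *En2* and *Gbx2* most of those of NSC, and *Otx2* 62.0% of NR replicate 1.

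The comparisons share libraries, so their calls are set side by side and not counted against each other. In NSC against NPC *Otx2*, *Six3*, *Rax*, *En2* and *Gbx2* were higher and *Otx1*, *Emx2* and *En1* lower, 5 and 3 of 9 genes where 42.7% of all genes were called higher and 32.5% lower. The median log2 fold change of the 9 was 1.93 against 0.20 over all genes, where 1.93 is the value of *Rax* and rests on 2 counts in NPC. In NR against NPC the same 5 genes were higher and *Otx1*, *Lhx2*, *Emx2* and *En1* lower, 5 and 4 of 9 against 44.2% and 32.8% of all genes, with a median of 1.88 against 0.19. Since most of all genes were called in these comparisons, the counts of members are near the background, and the size of each change is the measurement. *Rax* and *Otx2* are counted here although *Rax* passed the filter only through NR and *Otx2* through NSC and NR. *Six3*, also counted, passed it in only 1 NPC library. Of 7 neuron markers 6 were higher and 1 lower than in NPC in both NSC and NR, with median log2 fold changes of 6.01 and 4.66. The summed neuron markers were at 463 to 490 CPM in NPC, where *Map2* made up most of the sum, at 595 to 767 in NSC and at 357 to 538 in NR, and none of them was at 0 in a whole group. Of 5 neural crest markers tested of 6, 3 were higher and 2 lower in both, with sums of 299 to 332 CPM in NPC, mostly *Ets1*, 72.3 to 94.4 in NSC and 65.4 to 82.5 in NR, and *Sox10* was at 0 in all NPC and NPC(+) libraries. Of the 6 neural crest markers 4 had 3 counts or fewer in every NPC library. The part of neurons and neural crest cells in the changes of the 9 genes was not tested. In NR against NSC *Otx2* and *Rax* were higher and *Otx1*, *Lhx2*, *Emx2*, *En2* and *Gbx2* lower, 2 and 5 of 9 against 29.5% and 25.8% of all genes.

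NPC(+) was also set against the cultures labelled NSC and NR. Against NSC *Otx1* (log2 fold change 2.16), *Emx2* (2.34) and *En1* (2.67) were higher in NPC(+) and *Otx2*, *Six3*, *En2* (-3.55) and *Gbx2* (-2.53) lower, 3 and 4 of 9 genes where 30% of all genes were called higher and 39.9% lower. Against NR *Otx1* (3.62), *Lhx2* (2.18), *Emx2* (3.00) and *En1* (3.02) were higher and *Otx2*, *Rax* (summed counts in a ratio of 0.279, interval 0.0742 to 0.745, not called after thinning), *En2* (-1.93, or -1.25 without NR replicate 3) and *Gbx2* (-1.28) lower, 4 and 4 of 9 genes against 30.8% and 42.9% of all genes. For *Otx2*, with 5 counts in NPC(+), the ratio of summed counts was 0.0374 to NSC (interval 0.0121 to 0.0875) and 0.00964 to NR (0.00313 to 0.0225). Leaving out NR replicate 1, the library nearest to pluripotent cells by its markers, changed no call of a member in the 3 comparisons with NR. In NPC(+) against NPC the median log2 fold change of the 9 was 0.61 against 0 over all genes. This median is the value of *En2*, which was not called, and it takes in *Otx2* and *Rax*, which had few counts in both groups.

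**Figure D5:**
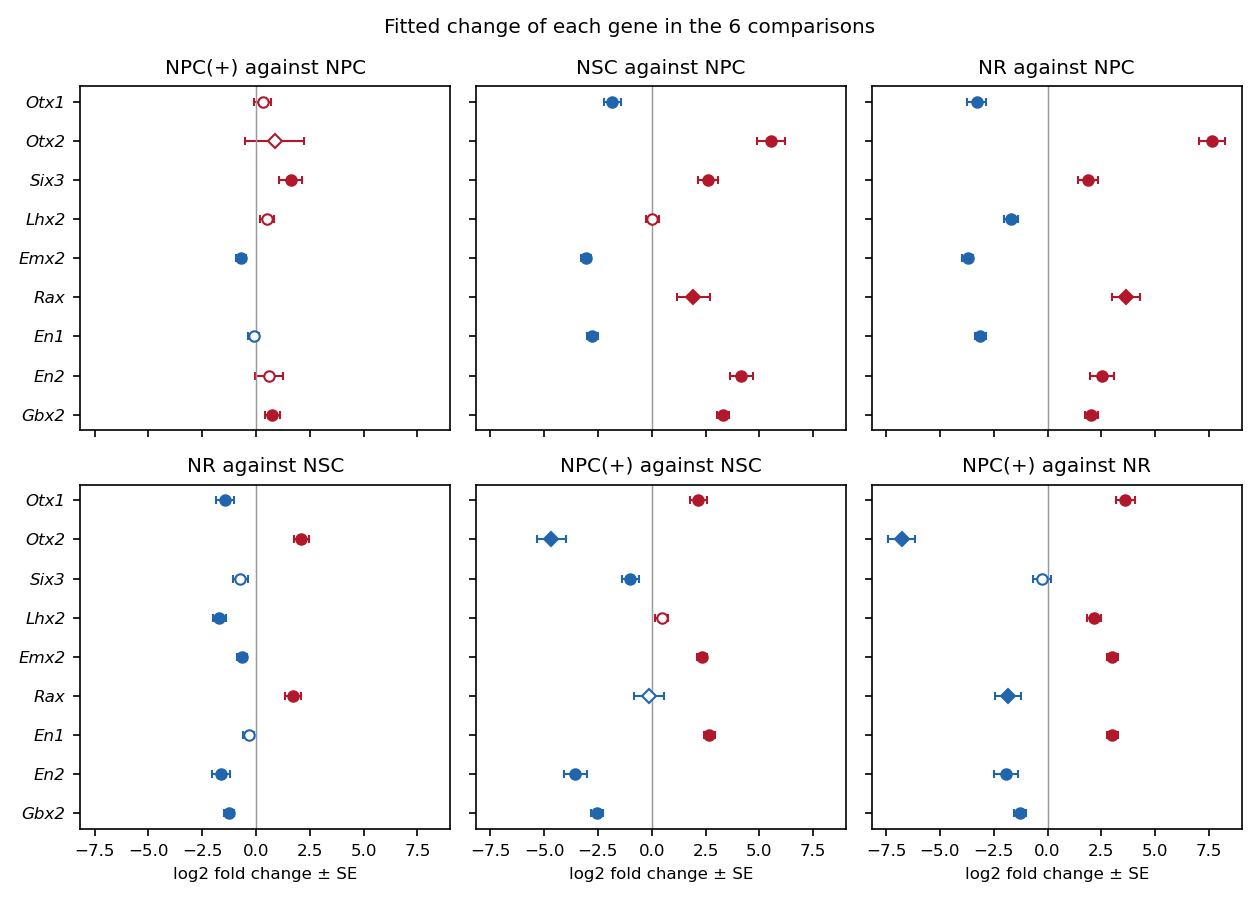
Fitted log2 fold change with its SE (x axis) of each of the 9 genes (y axis) in the 6 comparisons, red for higher and blue for lower in the group named first. Filled symbols passed the test and open ones did not, diamonds have a group with 3 counts or fewer in every library, and *Rax* is left out where both groups were at that floor.

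Other patterning genes were read from lists, whose counts stand beside the shares of all genes called, 21.6% higher and 22.7% lower in NPC(+) against NPC, 42.7% and 32.5% in NSC against NPC, 44.2% and 32.8% in NR against NPC and 29.5% and 25.8% in NR against NSC. Of 22 other forebrain transcription factors 20 were tested, and in NPC(+) against NPC 2 were higher, 1 was lower and 17 were not called (median log2 fold change 0.03, or 0 with genes absent from a group set at their floor). The called genes were *Lhx5*, a LIM homeobox gene of the diencephalon, at 1.08 ± 0.717 CPM in NPC(+) with 1 count in all NPC libraries together (adjusted p = 0.00344), *Vax2*, a ventral eye homeobox gene, at 36.8 ± 2.15 against 27.3 ± 1.24 (adjusted p = 0.0293), and *Nr2e1*, an orphan receptor of neural stem cells, lower at 1.52 ± 0.760 against 6.21 ± 1.02 (adjusted p = 0.0157). Against NPC 12 of the 20 were higher and 5 lower in NSC, and 9 were higher and 5 lower in NR (medians 1.91 and 0.87, or 0.70 for NR with absent genes at their floor). The members *Six3*, *Rax*, *Lhx2* and *Emx2* are not on this list. Of the 22 genes 9 had 3 counts or fewer in every NPC library, as had 4 of 16 hindbrain and 2 of 6 *Iroquois* genes below. Those of these genes that were tested could not pass the filter on low counts through NPC. Counts of list genes called against NPC are therefore given as a description. In NPC(+) 12 of the 22 forebrain, 5 of the 16 hindbrain and 2 of the 6 *Iroquois* genes had 3 counts or fewer in every library. For a gene this low in both NPC and NPC(+), a missing call between them does not show that it stayed the same.

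Of 16 midbrain and isthmus genes 15 were tested. In NPC(+) against NPC 1 was higher, 1 lower and 13 not called. The higher one, *Pax2*, a paired box gene of the isthmus named after its values were seen, had 6 counts in NPC(+) replicate 2, 0 in the other NPC(+) libraries and 1 in NPC. *Meis2*, a cofactor of homeodomain proteins, fell from 38.4 ± 1.72 to 13.9 ± 2.16 CPM (log2 fold change -1.44, SE 0.22, adjusted p = 1.41e-04). In NSC 13 and in NR 14 of the 15 were higher than in NPC, with median log2 fold changes of 3.71 and 3.34 (3.30 and 3.06 with absent genes at their floor) against 0.20 and 0.19 over all genes. Of the 16 genes 9 had 3 counts or fewer in every NPC library. Those of them that were tested could not pass the filter through NPC, so these counts are a description. In NPC(+) 9 of the 16 genes were this low as well, so a missing call between NPC(+) and NPC says little for genes low in both. *Fgf15*, a growth factor of the midbrain and hindbrain, had 2 counts over the 3 NPC libraries and 30.4 ± 6.31 CPM in NSC and 15.9 ± 3.51 in NR. *Fgf8*, the organizer signal itself, was at 1.89 ± 0.937 CPM in NSC and 7.87 ± 3.07 in NR, a log2 fold change of 2.04 (SE 0.41, adjusted p = 0.00101), and had at most 2 counts in any NPC or NPC(+) library.

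Of 16 hindbrain genes 14 were tested. In NPC(+) against NPC 1 was higher, 1 lower and 12 not called, with *Meis1*, another cofactor of homeodomain proteins, falling from 77.2 ± 4.14 to 42.3 ± 5.61 CPM (log2 fold change -0.87, SE 0.24, adjusted p = 0.0104). In NSC 11 were higher and 1 lower than in NPC, and in NR 10 were higher and 2 lower. In NR against NSC 11 of the 14 were lower and 3 were not called. Of the 6 *Iroquois* genes, which pattern the neural plate behind *Six3*, 5 were higher in NSC and 4 in NR than in NPC, 5 were lower in NR than in NSC, and only *Irx3* was called in NPC(+) against NPC (7.08 ± 0.647 against 12.9 ± 0.228 CPM, log2 fold change -0.88, SE 0.25, adjusted p = 0.0117). In NPC(+) against NPC the expressed genes within 5 Mb of each member, 16 to 75 per member, had median log2 fold changes of -0.17 to 0.09, against -0.06 for all expressed genes, -0.15 around *Six3* and -0.049 around *Emx2*. In NR against NPC some medians lay further from the -0.09 of all expressed genes. They were -0.82 around *Gbx2*, which was itself higher there, and -0.50 around *Lhx2*, which was itself lower. The part of such regions in the changes was not tested.

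Patterns over the 12 libraries were compared by Pearson's r of log2 CPM. The 12 fall into 4 groups, so that r mainly carries the differences between groups and is given as a description. The genes most like *Otx2* were *Lefty1*, a Nodal antagonist (r = 0.991; 38.5 CPM in NSC and 284 in NR), and *Kdm6a* (r = 0.991), and 2198 of the genes tested had an r above 0.9. Most like *Six3* were *Gm14287* (r = 0.954) and *Tspyl5* (r = 0.952), with 36 genes above 0.9. Most like *Emx2* was *Slc38a1* (r = 0.995), most like *En1* *9230105E05Rik* (r = 0.988), most like *Gbx2* *Adgrb1* (r = 0.992), most like *Otx1* *Slc2a13* (r = 0.987), most like *Lhx2* *Smarcc2* (r = 0.969) and most like *Rax* *Marveld3* (r = 0.978).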

How the data were processed

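RNA from PicoPure columns was amplified by SMART-Seq v4, a template-switching method for low input. The authors deposited 1 table of raw counts per Ensembl gene for 12 libraries, without normalization. The submitters' processing notes name STAR 2.6, RSEM 1.1.14 and the build mm10. Whether the whole numbers are tallied reads or rounded RSEM estimates, the annotation and the strand setting are not given in the sources used here. Symbols, positions and exon lengths came from GENCODE M21 (GRCm38), in which 45143 of 45706 identifiers had a symbol, and promoters from RefSeq.

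Counts were scaled by TMM. The 17003 genes that passed filterByExpr were tested with glmQLFit and glmQLFTest in edgeR 4.0.16 (R 4.3.3) over all 12 libraries with 1 coefficient per group and no block. The SE was taken from the log2 fold change and its F statistic. Intervals of ratios and shares are exact for counts and cover counting error only, since the reads carry no molecular identifiers. Alternatives were DESeq2 1.42.0, other scalings and filters, thinning, a replicate block, fits without the other groups, other thresholds and the omission of each library. Deviations from the group means in NR and NSC correlated at 0.229, 0.490 and 0.296 for equal numbers. They also did so at 0.301 for NR replicate 3 with NSC replicate 1 and at 0.186 for NR replicate 1 with NSC replicate 3. Pairs of a replicate 2 with another number lay between -0.41 and -0.262. Replicate 2 therefore stood apart in both groups, while replicates 1 and 3 were not matched by number. In the other comparisons all correlations were below 0.1. No label says that equal numbers were prepared together.

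The members and lists were chosen with earlier results of these data known. The members are named in every comparison. Of each list, at most 3 called genes whose groups do not overlap could be named per comparison, largest changes first, and per member the 2 genes most like it. Some list genes that this rule would name are not reported here. P-values rest on the spread between libraries within groups, estimated for each gene over all 4 groups together and moderated across genes. They do not measure the spread of the 2 compared groups alone. The 3 libraries of a group come from different days by the series' description.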

Additional observations from a re-analysis of the deposited data

How the results depend on the processing

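Of 54 fold changes of members 40 kept their direction and their side of the threshold in every alternative fit, and of 720 alternative values 675 did. The other thresholds are not part of these counts. With at least 10 counts asked in every library only *Lhx2*, *Emx2* and *En1* were tested, so that members higher fell to 0 in NPC(+), NSC and NR against NPC and in NR against NSC, members lower fell to 2 in NR against NSC, and to 0 in NPC(+) against NSC and against NR. In NPC(+) against NPC 2 members were higher, against 4 in a fit of only these groups, 3 without the filter on low counts, 1 with the replicate block, with thinning, with DESeq2's Wald test or at an adjusted p under 0.05, and 1 to 2 without single libraries. With a fold over 4 asked as well, 0 members were higher and 0 lower there, 1 higher and 0 lower in NR against NSC, and 1 lower in NPC(+) against NR. Thinning left 1 member higher in NR against NSC. *Lhx2* in NSC against NPC was near 0 and changed sign with the block (-0.0351), with thinning (-0.0163) and without single libraries (-0.20 to 0.29), and *Rax* in NPC(+) against NSC did so without single libraries (-0.43 to 0.19). The block, for numbers that no label ties to a shared preparation, cost the call of *Gbx2* in NPC(+) against NPC (0.71, adjusted p = 0.126) and gained that of *Six3* in NR against NSC. It changed no other call of a member. Other scalings moved the median of all genes by less than 0.1. Depth limits *Otx2*, *Rax* and *Six3* in NPC and NPC(+).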
